A study of Mus musculus with 29 samples.

Results

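The protein kinase C genes of the mouse retina were followed through sorted bipolar cells and photoreceptors. A gene belonged to the family set when its symbol in the RNA-seq table was Prkca, Prkcb, Prkcd, Prkce, Prkch, Prkci, Prkcq or Prkcz, which gave 8 of 24062 genes. Of these, 5 passed the filter on low counts, as did 14024 genes in all, and Prkcd, Prkch and Prkcq did not. RNA was measured in 15 libraries, 3 from each of 5 populations, and open chromatin by ATAC-seq in 12 libraries, 2 from each of 6 populations. ATAC-seq counts the places where a transposase can cut, so a region with many reads is accessible. All bipolar cells together (pan-BC) came from Otx2-GFP+/- mice for RNA and, by their labels, from Otx2-GFP+/-; Grm6-YFP+/+ mice for ATAC-seq. ON bipolar cells (ON-BC) and OFF bipolar cells (OFF-BC) came from Otx2-GFP+/-; Grm6-YFP+/+ mice in both assays. In these mice GFP sits in 1 copy of the Otx2 locus and labels bipolar cells strongly and photoreceptors weakly, and YFP under the Grm6 promoter marks ON-BC. Rods came from Nrl-eGFP mice, green cones (ATAC-seq only) from Opn1mw-GFP mice, and the cells labelled blue cone from Nrl-eGFP;NrlKO mice, in which photoreceptors without the rod factor Nrl stand in for blue cones. Bipolar cells were taken at postnatal days 42 to 48. Photoreceptors were taken at postnatal day 56 and re-analysed from an earlier study, so cell class cannot be told apart from study and age. OFF-BC were sorted a second time and the other populations of both tables were sorted once.

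Protein kinase C enzymes add phosphate to serine and threonine and fall into classes by what switches them on. The conventional enzymes, here Prkca (PKC alpha) and Prkcb (PKC beta), need calcium and diacylglycerol, the lipid that phospholipase C releases in the membrane. Prkcd, Prkce, Prkch and Prkcq (PKC delta, epsilon, eta and theta) respond to diacylglycerol without calcium. The atypical enzymes Prkci and Prkcz (PKC iota and zeta) respond to neither and work with the polarity proteins of the Par complex. In the retina, antibodies against PKC alpha are a standard stain for rod bipolar cells, the ON bipolar type that receives its input from rods.

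RNA-seq libraries held 12329548 to 26266746 counted reads and ATAC-seq libraries 4176776 to 12345845. The labels were checked against marker genes. In OFF-BC the 6 ON bipolar markers summed to 13.5% to 19.2% of their ON-BC mean, and in ON-BC the 6 OFF bipolar markers summed to 2.96% to 3.94% of their OFF-BC mean. The 6 rod markers summed in OFF-BC to 0.214% to 0.894% and in pan-BC to 1.61% to 2.03% of the rod mean. The 6 cone markers summed in OFF-BC to 1.9% to 6.6% of the blue cone mean, with replicate 3 the highest OFF-BC library for the ON, rod and cone lists. Below, a normalized count is a read count divided by the size factor of its library. A gene or region is called when limma's test against a log2 difference of 1 (limma treat) gave a Benjamini-Hochberg adjusted p under 0.05 over all genes or regions. Log2 differences are on the scale of normalized count plus 1 and are given ± SE, and levels are given ± SD. In bulk samples, fewer cells of a type and less RNA per cell cannot be told apart.

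Per kb of exon, the family summed highest in ON-BC and lowest in blue cones, and a different member led it in ON-BC, OFF-BC and photoreceptors. The sum of the 8 genes was 1849.7 ± 225 normalized counts per kb in ON-BC, 1529 ± 74.3 in pan-BC, 1077 ± 97.7 in OFF-BC, 469.6 ± 27.6 in rods and 301 ± 37.3 in blue cones (n = 3 each). No 2 populations overlapped in this sum, though the highest pan-BC library, at 1582, lay close to the lowest ON-BC library, at 1599.9. Prkca made up 53% ± 3.39 of the per-kb sum in ON-BC and 42.8% ± 3.41 in pan-BC. Prkcb made up 64.5% ± 3.92 of it in OFF-BC. Prkcz made up 56.1% ± 2.78 of it in rods and 61.5% ± 3.43 in blue cones. Prkce contributed 24.1% ± 0.878 in ON-BC, against 16% ± 0.376 in OFF-BC, and led in no population.

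**Figure D1:**
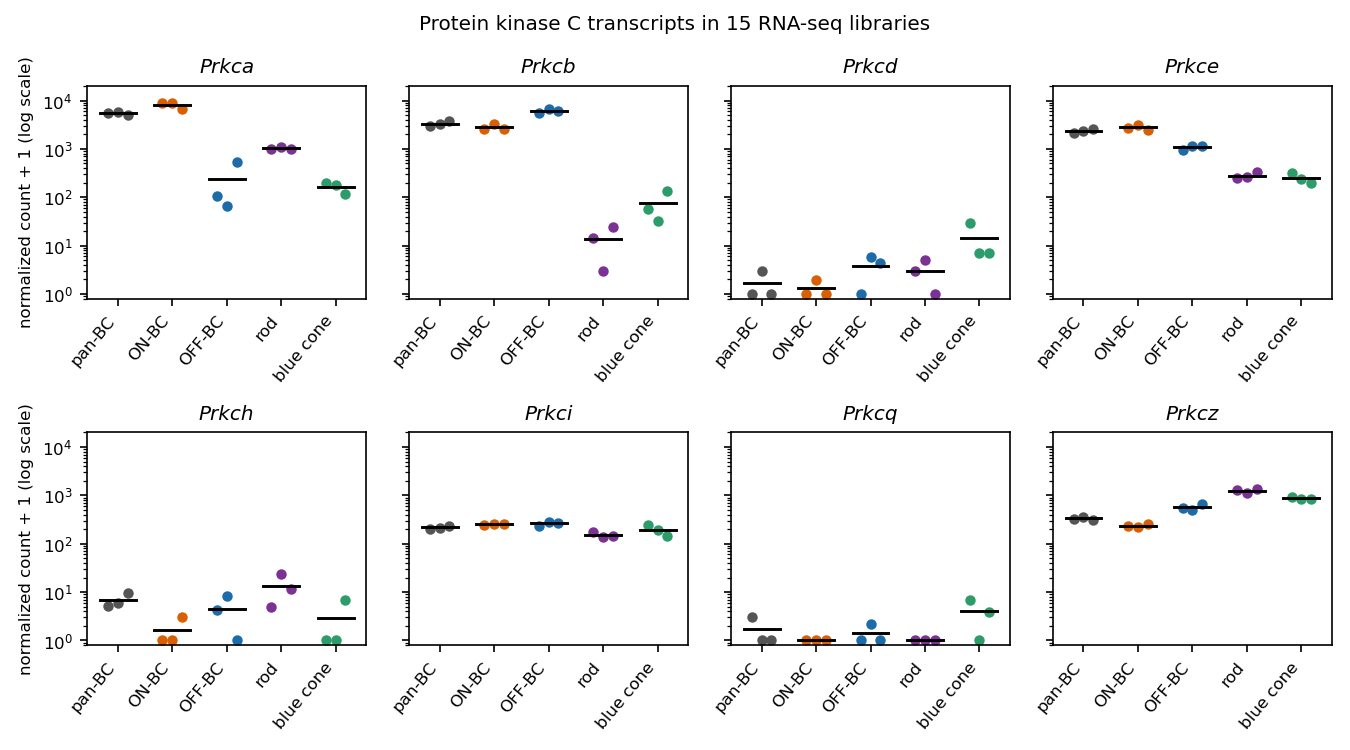
Normalized count plus 1 on a log axis for the 8 genes in each of the 15 RNA-seq libraries (points: libraries; bars: mean of 3). Prkca spans 66.1 to 533 normalized counts within OFF-BC and 6656 to 9037 within ON-BC, while Prkci is never below 135 or above 284.

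Prkca was 52.3-fold higher in ON-BC than in OFF-BC on the fitted scale, and it was also present in rods. Its normalized counts were 9037, 9025 and 6656 in ON-BC, with pan-BC at 5417, 5910.4 and 5069, and OFF-BC at 105, 66.1 and 533. They were 978, 1085 and 997 in rods, with blue cones at 194, 181 and 114. Every ON-BC library was above every pan-BC library, every pan-BC library was above every rod library, and OFF-BC replicate 3 alone among the OFF-BC libraries was above the blue cones. The log2 difference of ON-BC minus OFF-BC was 5.71 ± 0.48 (adjusted p = 1.86e-06, limma treat) and became 6.60 without OFF-BC replicate 3. Prkca was the 1 member called higher in ON-BC, where 2.95% of all genes tested were called higher in ON-BC and 3.6% higher in OFF-BC.

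Pan-BC held more Prkca than rods by 2.42 ± 0.48 on the log2 scale (adjusted p = 0.0115, limma treat) and more than blue cones by 5.09 ± 0.48 (adjusted p = 9.62e-07). Rods held more than blue cones by 2.68 ± 0.48 (adjusted p = 0.011), a call that was lost without blue cone replicate 3 (2.44, adjusted p = 0.0541). These 3 comparisons share libraries, since pan-BC, rods and blue cones each enter 2 of them. In the order of mean log2 level of Prkca, ON-BC came first, followed by pan-BC, rods, blue cones and OFF-BC. In limma's test of any difference, ON-BC and pan-BC did not pass (0.58 ± 0.48, adjusted p = 0.633, beside 6.08% of all genes), nor did blue cones and OFF-BC (0.03 ± 0.48, adjusted p = 0.953, beside 75.4%). The pairs pan-BC and rods and rods and blue cones passed it, beside 79.5% and 57.5% of all genes. The SE of 0.48 comes from a spread shared by all populations, including OFF-BC, whose libraries ran from 66.1 to 533. The test of ON-BC and pan-BC therefore does not measure the spread of their libraries alone and does not show equal levels.

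In the OFF-BC libraries Prkca moved together with some markers of ON and rod bipolar cells, but not with all of them. As a percent of the ON-BC mean, Prkca stood at 1.28%, 0.802% and 6.47% in OFF-BC replicates 1, 2 and 3. Grm6, the glutamate receptor of ON bipolar cells, stood at 1.08%, 0.481% and 4.39%. Car8, a rod bipolar marker, stood at 1.58%, 1.05% and 5.09%. Replicate 3 was the highest OFF-BC library for all of these, as it was for the rod bipolar markers Sebox at 1.97% to 8.57% and Vstm2b at 0.768% to 4.85%. The ON marker Isl1, a transcription factor, stood at 1.31%, 0.618% and 5.06%. The ON markers Trpm1, at 10.4%, 9.49% and 13.3%, and Nyx, at 12.3%, 18.5% and 21.3%, varied less. So did Gng13, at 28.3%, 24% and 34.3%, and Rgs11, at 39.9%, 35.7% and 39.5%, with Rgs11 highest in replicate 1. Trpm1, Nyx, Gng13 and Rgs11 were above Prkca in every OFF-BC library. The part of ON bipolar cells in the OFF-BC level of Prkca was not tested.

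In rods Prkca stood at 11.9%, 13.2% and 12.1% of its ON-BC mean. The 6 ON bipolar markers summed there to 0.179% to 0.402%. The rod bipolar marker Car8 stood at 0.352% to 0.695%, Sebox at 0.72% to 0.947% and Vstm2b at 0.0819% to 0.31%. Prkca in rods was above these 9 markers in every rod library. In blue cones Prkca stood at 1.38% to 2.36% and the ON bipolar markers summed to 0.411% to 0.894%. Of the rod bipolar markers in blue cones, Car8 stood at 26.5% to 38.6% of the ON-BC mean, while Sebox stood at 0.797% to 0.926% and Vstm2b at 0% to 0.12%.

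**Figure D2:**
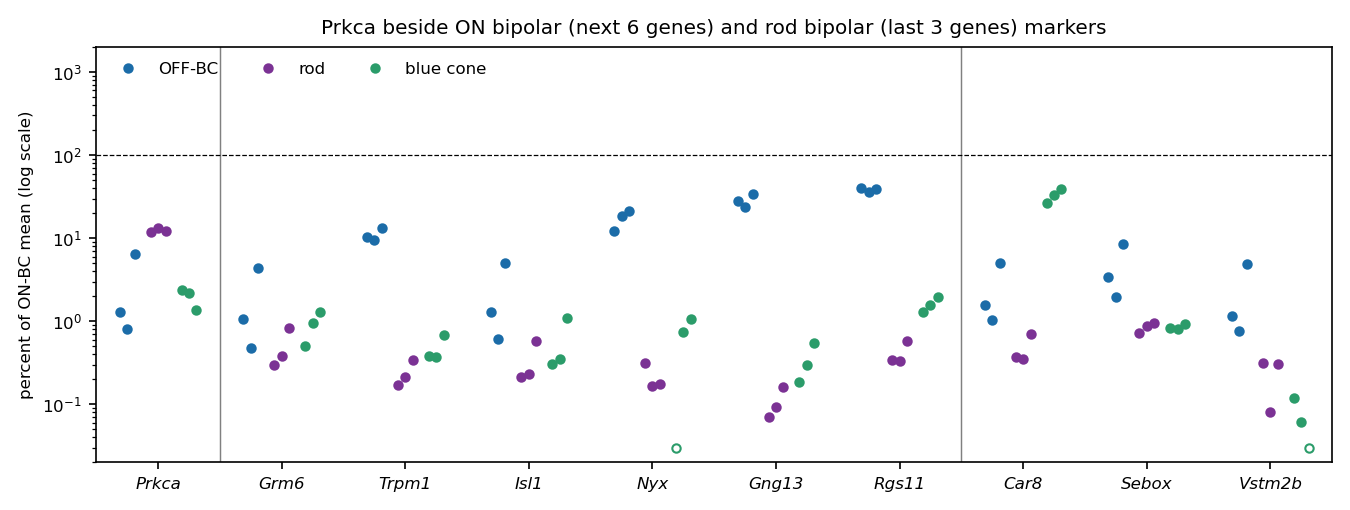
Prkca, 6 ON bipolar markers and 3 rod bipolar markers in each OFF-BC, rod and blue cone RNA-seq library, as a percent of the gene's ON-BC mean on a log axis with a dashed line at the ON-BC mean, where open symbols at the bottom are libraries at 0. In rods the Prkca points, at 11.9% to 13.2%, lie above all 9 markers, and in OFF-BC they run from 0.802% to 6.47%.

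The start site of Prkca was accessible in every population, and the called differences lay inside and upstream of the gene. Prkca lies on the minus strand at chr11:107933387-108343888 (GRCm38). Regions were given to the gene with the nearest start site, which put 92 regions at the 8 genes, 91 of them tested. Prkca had 24 of these, 21 in introns, and 23 were tested. The promoter region, chr11:108343839-108344039, held 195 and 141 normalized counts in pan-BC, with ON-BC at 125 and 158, OFF-BC at 194 and 183, rods at 294 and 272, and blue cones at 211 and 211. Rods were the highest population there, the log2 differences over the 4 comparisons ran from -0.76 to 0.42 without a call (in the test of any difference pan-BC minus rod passed, adjusted p = 0.002), and all 14 libraries with peak files had a peak there, with deposited fold enrichments from 9.56 to 18. Among the 23 Prkca regions tested, 6 were called higher in ON-BC than in OFF-BC, all of them in introns. Over the 8 genes 8 regions were called higher in ON-BC and 3 higher in OFF-BC, beside 4.58% and 2.8% of all regions tested, and the sum of both, 11, became 7 without OFF-BC replicate 2 and 7 without ON-BC replicate 2. The calls over all regions were 4972 higher in ON-BC and 3038 higher in OFF-BC, and this split became 3702 and 3477 with TMM scaling and 3678 and 4055 with scaling to library totals, and 3775 and 1016 with DESeq2.

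Of the Prkca regions, 3 are shown because they carry these differences, on the strand of the gene and with capitals for TAATCC on either strand, for TAATTA, and for the E-box letters CATCTG and also CAGCTG. The first had the largest called difference in favour of pan-BC over rods, and the second the largest between pan-BC and blue cones. The third was chosen after its values were seen, as the region with the largest called difference in favour of rods over pan-BC.
chr11:108320480-108320680: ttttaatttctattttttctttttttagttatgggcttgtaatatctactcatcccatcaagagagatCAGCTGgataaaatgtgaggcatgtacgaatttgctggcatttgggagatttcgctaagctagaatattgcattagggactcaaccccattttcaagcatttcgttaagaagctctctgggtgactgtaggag
chr11:108299644-108299844: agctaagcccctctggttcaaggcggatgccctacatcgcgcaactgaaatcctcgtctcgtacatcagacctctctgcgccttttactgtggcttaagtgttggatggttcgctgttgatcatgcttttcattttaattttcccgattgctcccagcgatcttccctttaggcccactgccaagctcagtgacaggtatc
chr11:108348188-108348388: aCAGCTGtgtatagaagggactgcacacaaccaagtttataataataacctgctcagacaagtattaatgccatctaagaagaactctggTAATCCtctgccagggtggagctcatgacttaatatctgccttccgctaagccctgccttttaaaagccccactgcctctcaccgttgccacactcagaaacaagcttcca

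The first, 23.3 kb into the gene, held 68 and 45 normalized counts in pan-BC, with ON-BC at 53.8 and 84.9, OFF-BC at 2.69 and 1.95, rods at 0 and 2.71, and blue cones at 0 and 2.89. Pan-BC and ON-BC were the high populations, and no library of the other 3 exceeded 2.89. The log2 difference was 4.38 ± 0.81 for ON-BC minus OFF-BC (adjusted p = 0.00886, limma treat) and 4.87 ± 0.81 for pan-BC minus rod (adjusted p = 0.000311).

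The second, 44.1 kb in, was chosen for its difference between pan-BC and blue cones, so that part of its order was built in. Rods lay below pan-BC and ON-BC there and above OFF-BC and blue cones. The region held 99.2 and 95.2 normalized counts in pan-BC, with ON-BC at 94.1 and 173, OFF-BC at 5.39 and 4.87, rods at 21 and 18.3, and blue cones at 2.59 and 1.45. ON-BC was above OFF-BC by 4.39 ± 0.50 on the log2 scale (adjusted p = 0.00033, limma treat). Pan-BC was above blue cones by 5.05 ± 0.50 (adjusted p = 6.97e-06, limma treat). Rods were above blue cones by 2.80 ± 0.50 (adjusted p = 0.0151), a call lost without blue cone replicate 2 (adjusted p = 0.0934) and without rod replicate 1 or 2 (0.0969 and 0.0533). It was also lost with DESeq2 (0.0654), a pseudocount of 5 (0.183) and only those populations (0.127). It was the 1 Prkca region called between rods and blue cones.

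Other Prkca regions were accessible in rods and had few reads in bipolar cells. Between pan-BC and rods 4 of the 23 regions were called higher in pan-BC and 8 higher in rods. Over the 8 genes these counts were 32 and 16, beside 40.3% and 11.2% of all regions. The third sequence, at -4.4 kb, upstream of the start, held 238 and 278 normalized counts in rods, with blue cones at 68.6 and 93.9 and 2.69 to 11.9 over the 6 bipolar libraries, with a log2 difference of pan-BC minus rod of -4.72 ± 0.58 (adjusted p = 1.81e-05, limma treat). A region 107.5 kb into the gene, named after its values were seen, held 179 and 180.3 in rods and 3.89 to 17.6 in bipolar libraries.

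**Figure D3:**
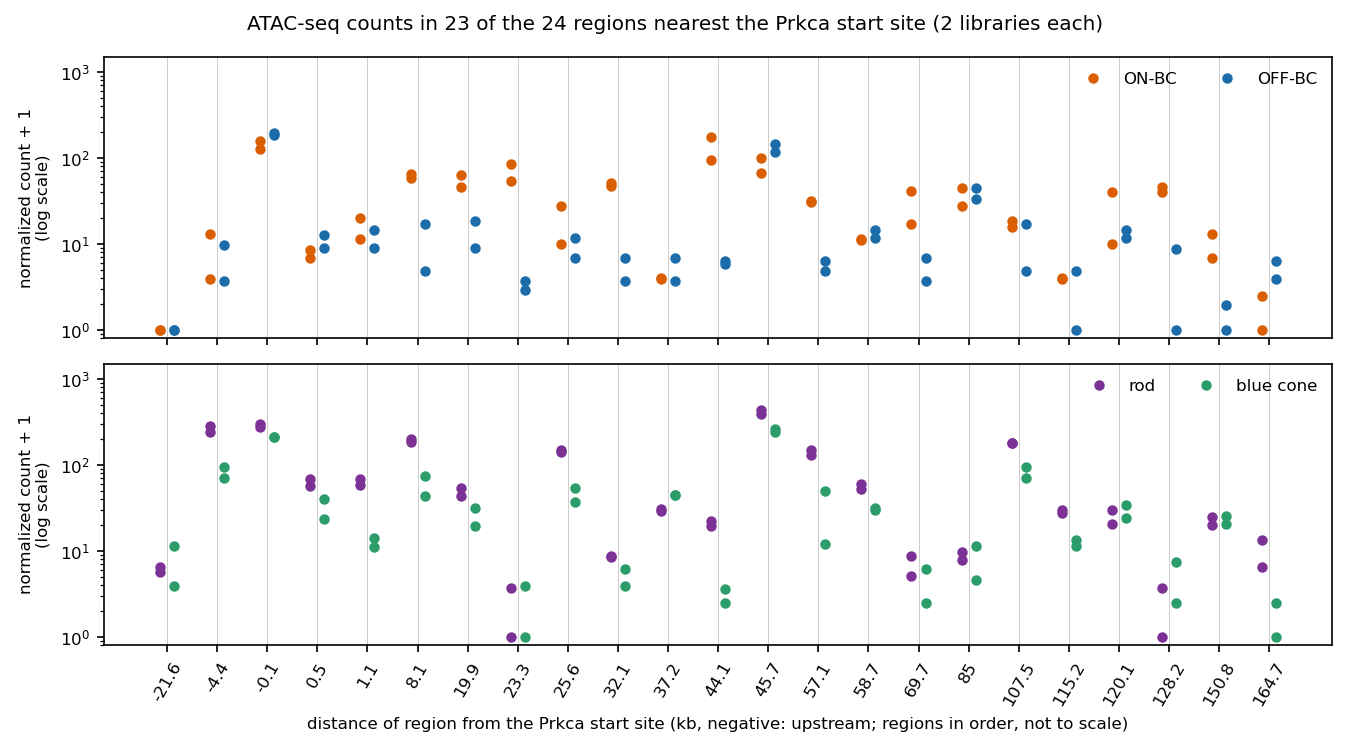
ATAC-seq normalized count plus 1 on a log axis in 23 of the 24 regions nearest the Prkca start site, in order of distance in kb (not to scale), with 2 points each for ON-BC and OFF-BC (top), rods and blue cones (bottom). OFF-BC is below ON-BC at 23.3, 32.1 and 44.1 kb, and rods are the highest of these 4 populations at -4.4 and 107.5 kb.

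Prkcb, the other conventional gene, was a bipolar transcript with its highest level in OFF-BC. Its normalized counts were 5567, 6754 and 6059 in OFF-BC, with pan-BC at 2973, 3345 and 3713, and ON-BC at 2529, 3211 and 2575. They were 57.2, 31.9 and 131 in blue cones, with rods at 13.6, 2.05 and 22.7. All OFF-BC libraries were above all pan-BC and ON-BC libraries, but ON-BC minus OFF-BC, -1.15 ± 0.54, passed neither limma treat (adjusted p = 1) nor the test of any difference (adjusted p = 0.134). OFF-BC and pan-BC did not pass the test of any difference (0.87 ± 0.54, adjusted p = 0.29, beside 20.8% of all genes), nor did pan-BC and ON-BC (0.27 ± 0.54, adjusted p = 0.886). ON-BC and blue cones differed in it (5.45 ± 0.54, adjusted p = 1.10e-07, beside 75.6%). The SE of 0.54 comes from a spread shared by all populations, including rods and blue cones with their low and variable counts. The tests among bipolar populations therefore do not measure the spread of the bipolar libraries alone.

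Pan-BC held more Prkcb than rods by 8.35 ± 0.54 on the log2 scale (adjusted p = 1.74e-09, limma treat) and more than blue cones by 5.72 ± 0.54 (adjusted p = 7.81e-07). Prkca, Prkcb and Prkce were the 3 members called higher in pan-BC than in rods, with Prkcz the 1 called higher in rods, beside 27.8% and 15.8% of all genes tested. The same genes were called in the same directions against blue cones, beside 22.7% and 13.7%. With scaling to library totals the median of all genes moved by 0.34 (log2) in pan-BC minus rod, and the split over all genes went from 3901 higher in pan-BC and 2211 higher in rods to 4493 and 1579.

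Between the photoreceptors, rod minus blue cone was -2.63 ± 0.54 for Prkcb (adjusted p = 0.0274, limma treat). Prkca was the 1 member called higher in rods and Prkcb the 1 called higher in blue cones, beside 4.63% and 11.3% of all genes. The Prkcb call was lost without blue cone replicate 3 (-2.10, adjusted p = 0.17), without rod replicate 2 (-1.77, adjusted p = 0.173), with DESeq2 (adjusted p = 0.0654) and with only those populations (adjusted p = 0.34). Of the bipolar markers Neurod4, Cabp5, Gnb3 and Otx2, the first 3 were also higher in every blue cone library than in every rod library, and Otx2 overlapped. In blue cones Prkcb stood at 1.71%, 0.953% and 3.92% of its pan-BC mean and Neurod4 at 2.5%, 3.17% and 4.67%. In rods Prkcb stood at 0.406%, 0.0613% and 0.679% and Neurod4 at 0.713%, 0.867% and 1.37%. Replicate 3 was the highest library of Prkcb and Neurod4 in both populations, but not of the other 3 markers in blue cones. The markers differed widely in these cells. The calcium-binding gene Cabp5 stood at 66% to 77.1% (blue cones) and 0.608% to 0.933% (rods) of its pan-BC mean, Gnb3, which cones also express, at 275% to 286% and 4.38% to 6.16%, and Otx2, which photoreceptors also express, at 65.7% to 74.5% and 68.3% to 76.7%. The part of bipolar cells in the Prkcb levels was not tested.

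Most regions at Prkcb were more accessible in bipolar cells than in rods, and fewer were so against blue cones. The gene lies on the plus strand at chr7:122289125-122634402, and 13 of its 14 regions lie in introns. The promoter region, chr7:122288994-122289194, held 320.0 and 297 normalized counts in pan-BC, with ON-BC at 378 and 321, OFF-BC at 167 and 193, rods at 13.2 and 6.1, blue cones at 37.6 and 31.8, and green cones at 22.3 and 19.7. Every bipolar library was above every photoreceptor library, and OFF-BC, where the transcript was highest, was the lowest of the bipolar populations. Pan-BC minus rod was 4.94 ± 0.30 (adjusted p = 8.93e-09, limma treat) and pan-BC minus blue cone 3.12 ± 0.30 (adjusted p = 2.22e-05). ON-BC minus OFF-BC, 0.95 ± 0.30, was not called (adjusted p = 1) but passed the test of any difference (adjusted p = 0.0271). Against rods 12 of the 14 regions were called higher in pan-BC, beside 40.3% of all regions. Against blue cones 8 were called higher and 1 lower, where the 8 genes together had 24 and 7, beside 28.8% and 7.13% of all regions.

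Of the Prkcb regions, 2 introns are shown for the largest called difference of pan-BC against rods and against blue cones, on the strand of the gene and with the same letters in capitals.
chr7:122331858-122332058: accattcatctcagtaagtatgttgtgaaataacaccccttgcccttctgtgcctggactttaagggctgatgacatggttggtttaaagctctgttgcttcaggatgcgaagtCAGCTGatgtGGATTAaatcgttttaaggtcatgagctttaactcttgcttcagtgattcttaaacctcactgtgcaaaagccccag
chr7:122346339-122346539: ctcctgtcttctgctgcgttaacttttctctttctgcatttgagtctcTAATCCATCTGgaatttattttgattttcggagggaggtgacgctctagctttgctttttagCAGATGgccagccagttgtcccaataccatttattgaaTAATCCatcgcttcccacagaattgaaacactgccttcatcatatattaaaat
The first, 42.8 kb into the gene, was at 0 in both rod libraries and open in every other population. It held 51.2 and 41.1 normalized counts in pan-BC, with ON-BC at 55.2 and 39.5, OFF-BC at 59.3 and 56.5, blue cones at 36.3 and 52, and green cones at 46.9 and 47.9. Pan-BC was at least 21.1-fold and blue cones at least 20.2-fold above rods (adjusted p = 4.29e-08 and 2.79e-07, limma treat), the latter lost with only rods and blue cones fitted (0.0618). Over the 8 genes 3 regions were called higher in rods and 5 higher in blue cones, beside 1.46% and 8.56% of all regions, and the sum of both, 8, became 4 without blue cone replicate 2 and 5 without rod replicate 2. The second, 57.3 kb in, held 44.8 and 31.4 in pan-BC, with ON-BC at 32.8 and 67.4, OFF-BC at 8.08 and 14.6, and rods at 0 and 1.36, and was at 0 in both blue cone libraries. Pan-BC was at least 12.6-fold above blue cones (adjusted p = 0.000271) and above rods by a ratio of 51 (95% counting interval 13.8 to 426). The 1 Prkcb region called between ON-BC and OFF-BC, 183.2 kb in, held 2.99 and 0 in ON-BC, with OFF-BC at 13.5 and 27.3 (ratio of OFF-BC to ON-BC 14.5 (95% counting interval 3.75 to 124), adjusted p = 0.0482). That call was lost without OFF-BC replicate 1 or 2 or ON-BC replicate 2 (adjusted p = 0.0795, 0.258 and 0.425), with a pseudocount of 0.5 or 5 (0.066 and 0.145), without the filter on low values (0.0508), with DESeq2 (0.349), with only those populations (0.189) and with the replicate number as a block (0.053, or 0.13 with only those libraries).

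Prkce had the highest transcript level in the class that responds to diacylglycerol without calcium, and it was higher in bipolar cells than in photoreceptors. Its normalized counts were 2771, 3069 and 2494 in ON-BC, with pan-BC at 2154, 2314 and 2583, and OFF-BC at 941, 1137 and 1164. They were 249, 256 and 325 in rods, with blue cones at 312, 236 and 192. No ON-BC or pan-BC library overlapped OFF-BC, no OFF-BC library overlapped the photoreceptors, and rods and blue cones overlapped. Pan-BC held more than rods by 3.09 ± 0.16 (adjusted p = 2.97e-09, limma treat) and more than blue cones by 3.27 ± 0.16 (adjusted p = 2.20e-09). ON-BC minus OFF-BC was 1.36 ± 0.16, which was not called (adjusted p = 0.221) but passed the test of any difference (adjusted p = 6.07e-06, beside 27% of all genes) and edgeR's test against a log2 difference of 1 (adjusted p = 0.0303). In the test of any difference pan-BC was above OFF-BC (1.12 ± 0.16, adjusted p = 7.88e-05) and OFF-BC above rods (1.96 ± 0.16, adjusted p = 6.21e-09, beside 79.3%), while ON-BC and pan-BC (0.52) and rods and blue cones (0.345) did not pass it.

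In photoreceptors Prkce stood at 10.6% to 13.8% (rods) and 8.16% to 13.3% (blue cones) of its pan-BC mean. In rods this lay above Neurod4, Cabp5 and Gnb3 and below Otx2, and in blue cones above Neurod4 and below the other 3 bipolar markers. The part of bipolar cells in these levels was not tested. Its promoter, chr17:86167565-86167765, was accessible in all populations, with 93.5 to 173 normalized counts over the 12 libraries and log2 differences from -0.38 to 0.62 over the 4 comparisons, without a call. The gene spans chr17:86167785-86657919 on the plus strand. A region 59 kb into it held 33.6 and 40.5 in pan-BC, with rods at 6.23 and 1.36, and blue cones at 24.6 and 34.7. Rods were the low population, and the log2 difference was 3.20 ± 0.50 for pan-BC minus rod (adjusted p = 0.000578, limma treat) and -2.87 ± 0.50 for rod minus blue cone (adjusted p = 0.011), the latter lost without blue cone replicate 2 (0.0996) or rod replicate 2 (0.176), with a pseudocount of 5 (0.0574) and with only those populations (0.254). The nearest start site gave Prkce 7 regions, while 59 regions lay in its gene body or within 10 kb, of which limma treat called 20 in favour of pan-BC and 7 in favour of rods. Over all regions these shares were 40.3% and 11.2%.

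The other genes of the class that responds to diacylglycerol without calcium, Prkcd, Prkch and Prkcq, were near the limit of detection and were not tested. Prkcd held 28.6, 6.07 and 5.92 normalized counts in blue cones and at most 4.81 in any other library. Prkch reached 3.88, 22.5 and 10.8 in rods and at most 8.56 elsewhere. Prkcq was at 0 in all ON-BC and rod libraries and at most 6.02 elsewhere. A count of 0 still allows 3 reads per library, so absence of these transcripts was not shown.

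The promoters of Prkch and Prkcq were accessible in bipolar cells. The Prkch promoter, chr12:73584631-73584831, held 79.2 and 69 normalized counts in pan-BC, with rods at 36.6 and 37.9, with a peak in all 14 peak files. The Prkcq promoter, chr2:11172218-11172418, held 78.4 and 90.1 in pan-BC, with ON-BC at 119 and 109.8, OFF-BC at 88.9 and 30.2, rods at 2.34 and 1.36, and blue cones at 6.48 and 5.06. Bipolar libraries were all above photoreceptors at a gene whose transcript was nearly absent in both. Pan-BC minus rod was 4.92 ± 0.50 (adjusted p = 2.18e-06, limma treat) and pan-BC minus blue cone 3.66 ± 0.50 (adjusted p = 0.000224). Of the 15 regions nearest the Prkcq start, 13 are intergenic, the farthest at -323.7 kb, and 12 of the 15 were called higher in pan-BC than in rods, beside 40.3% of all regions. The region at -234.9 kb, chr2:10937362-10937562, held 216 and 214 in ON-BC, with pan-BC at 99.2 and 119.7, and OFF-BC at 21.6 and 13.6 and was at 0 in both rod libraries. Pan-BC was at least 50.1-fold above rods there, and ON-BC was above OFF-BC by 3.57 ± 0.59 (adjusted p = 0.00661). A region 13.7 kb into Prkcq had the opposite pattern, at 0 in both ON-BC libraries and 24.2 and 24.3 in OFF-BC, at least 5.48-fold higher in OFF-BC (adjusted p = 0.00226). Whether regions so far from a start act on that gene was not tested.

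At Prkcd, promoter counts were low, with 9.6 and 7.41 in pan-BC, with rods at 21.8 and 23.7, and blue cones at 38.9 and 52.8 at chr14:30626159-30626359, and blue cones, the population with the highest Prkcd transcript counts, were the highest. Pan-BC minus blue cone was -2.29 ± 0.53 (adjusted p = 0.0354, limma treat), a call lost when any 1 of those 4 libraries was left out (adjusted p 0.0573 to 0.167) and with DESeq2 (0.0743). In Prkch introns, a region 134.0 kb from the start held 73.2 and 93.5 in rods, with blue cones at 0 and 7.23 (rod minus blue cone 4.87 ± 0.75, adjusted p = 0.00102, or 0.207 with only those populations fitted). Rods also had the highest mean transcript count of Prkch, which was not tested. Rod replicate 1, at 3.88, lay below every pan-BC library for that transcript. A Prkch region 115.2 kb from the start was high in the bipolar cells instead, with 27.2 and 27.4 in pan-BC, with rods at 0 and 1.36, a ratio of 37.7 (95% counting interval 10.1 to 316).

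**Figure D4:**
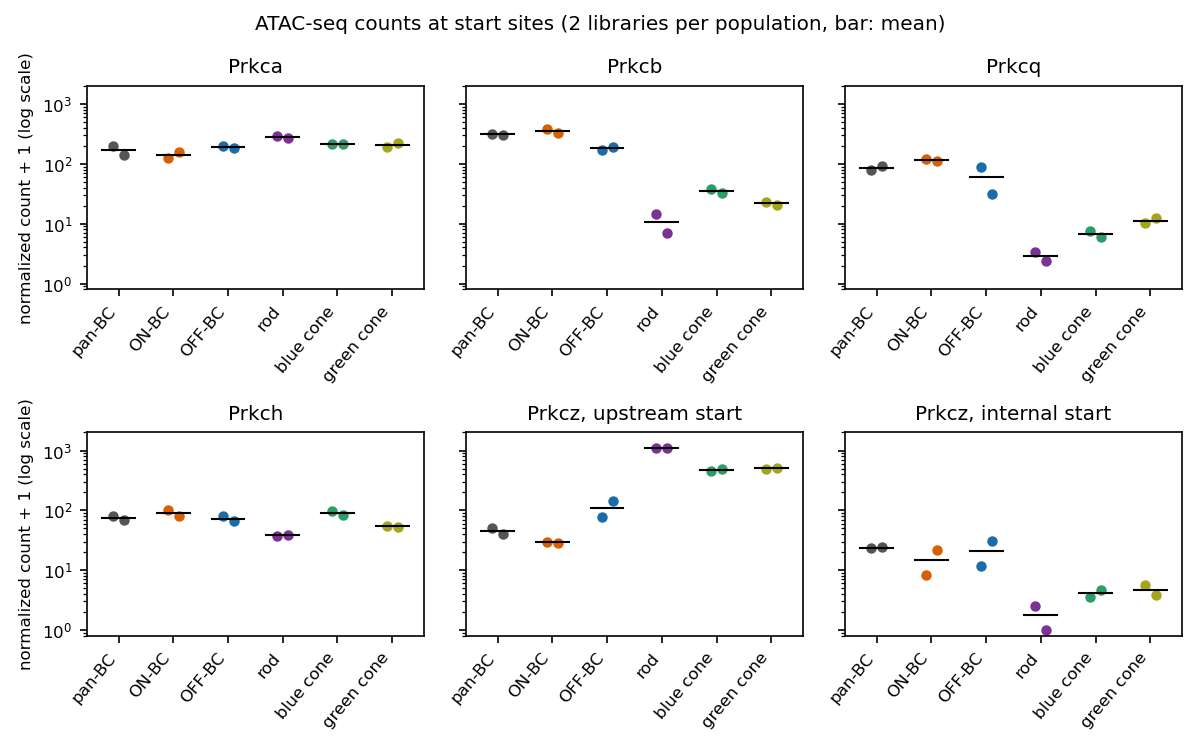
ATAC-seq normalized count plus 1 on a log axis at the start sites of Prkca, Prkcb, Prkcq and Prkch and at 2 starts of Prkcz, with 2 libraries per population and the mean as a bar. Prkca and Prkch have reads in every library, Prkcb and Prkcq are higher in the 6 bipolar libraries than in photoreceptors, and the upstream Prkcz start is highest in rods at 1096 and 1092.

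Of the atypical genes, Prkci varied least between populations. Its normalized counts ran from 202 to 237 in pan-BC, with ON-BC at 241 to 261, OFF-BC at 237 to 284, rods at 135 to 174, and blue cones at 147 to 239. It was not called in the 4 comparisons (log2 differences -0.04 ± 0.18, 0.53 ± 0.18, 0.20 ± 0.18 and -0.33 ± 0.18), and neighbours in its order of levels did not pass the test of any difference (smallest adjusted p = 0.124; for pan-BC and blue cones 0.323, beside 76.3% of all genes). Pan-BC minus rod passed that test (adjusted p = 0.0124). Its start at chr3:30995771-31052740 had 2 promoter regions, which held 314 to 549 and 178 to 304 normalized counts over the 12 libraries. Their log2 differences over the 4 comparisons ran from -0.35 to 0.50 and from -0.54 to 0.53, without a call.

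Among the tested members, Prkcz alone had its highest level in photoreceptors. Its normalized counts were 1267, 1106 and 1363 in rods, with blue cones at 933, 848 and 825, and OFF-BC at 551, 493 and 672. They were 324, 363 and 309.6 in pan-BC, with ON-BC at 229, 217 and 261. The libraries of the 5 populations did not overlap. Pan-BC minus rod was -1.90 ± 0.13 (adjusted p = 8.77e-06, limma treat). Pan-BC minus blue cone was -1.38 ± 0.13 (adjusted p = 0.0158), a call lost without blue cone replicate 1 (adjusted p = 0.054), without pan-BC replicate 3 (0.0587) and with scaling to library totals (0.507). ON-BC minus OFF-BC, -1.27 ± 0.13, and rod minus blue cone, 0.52 ± 0.13, were not called (adjusted p = 0.319 and 1). In the test of any difference each step from rods through blue cones, OFF-BC and pan-BC to ON-BC passed (adjusted p = 0.00312, 0.000507, 0.000436 and 0.033).

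The bipolar level of Prkcz lay above that of rod and cone genes in the same libraries. Prkcz stood in pan-BC at 24.9% to 29.2%, in ON-BC at 17.4% to 20.9% and in OFF-BC at 39.6% to 54% of its rod mean, while the 6 rod markers summed to 1.61% to 2.03%, 1.03% to 1.34% and 0.214% to 0.894%. Against blue cones, Prkcz stood in OFF-BC at 56.7% to 77.4% and the 6 cone markers summed to 1.9% to 6.6%. OFF-BC replicate 3, the highest for both, was also the highest for Prkcz, and among the cone markers Gngt2 alone reached the range of Prkcz, at 40.6% to 63%.

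**Figure D5:**
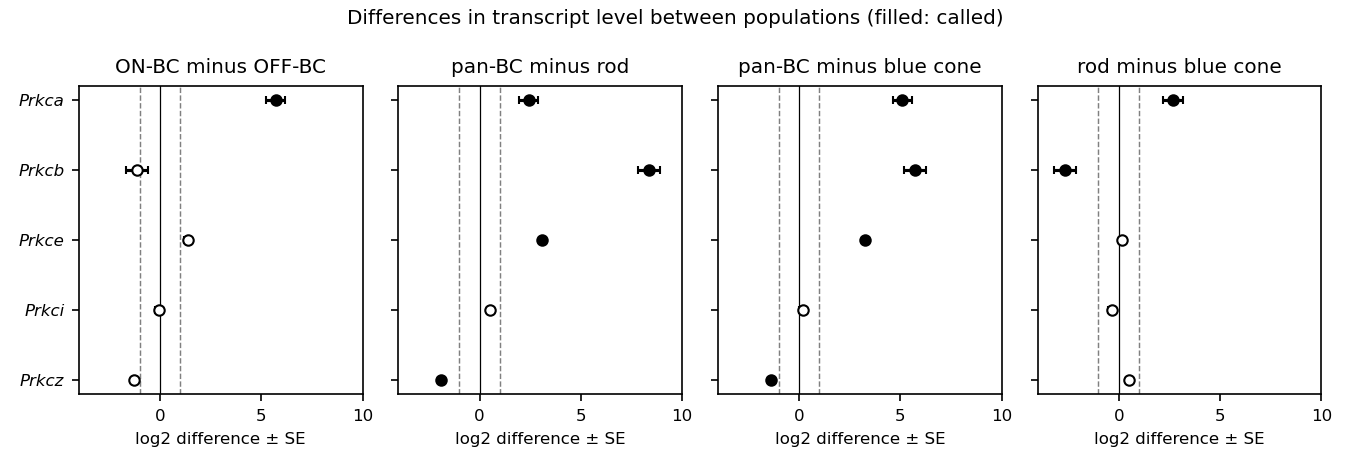
Log2 difference ± SE of the 5 tested genes in the 4 comparisons, with filled points for those called by limma treat and dashed lines at a log2 difference of -1 and 1. Prkca stands at 5.71 in ON-BC minus OFF-BC, and Prkcz is the 1 gene called below 0 against both rods and blue cones.

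Prkcz has 3 annotated starts on the minus strand of chr4:155260118-155361428, and the upstream start and 1 internal start differed between pan-BC and rods in opposite directions, while the upstream start had the highest mean in both. The part of the upstream promoter region that lies before the start is shown because it carried the largest called difference at Prkcz, and it holds none of the letters searched.
chr4:155361429-155361609: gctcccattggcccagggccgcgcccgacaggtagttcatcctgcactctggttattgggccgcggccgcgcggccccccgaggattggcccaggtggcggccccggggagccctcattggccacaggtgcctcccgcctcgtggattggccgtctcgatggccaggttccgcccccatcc
The whole region, chr4:155361409-155361609, held 1096 and 1092 normalized counts in rods, with blue cones at 461 and 489, green cones at 491 and 511, OFF-BC at 75.4 and 142, pan-BC at 50.4 and 38.8, and ON-BC at 28.4 and 27.8. The populations fell in the same order as the transcript. Pan-BC minus rod was -4.60 ± 0.24 (adjusted p = 1.90e-09, limma treat) and pan-BC minus blue cone -3.39 ± 0.24 (adjusted p = 1.07e-06). ON-BC minus OFF-BC was -1.85 ± 0.24 (adjusted p = 0.0211), which was lost without OFF-BC replicate 2 (0.288) and without ON-BC replicate 1 or 2 (0.0653 and 0.084). It was also lost in a fit of only those libraries, without the replicate number as a block (0.23) and with it (0.177). At an internal start, chr4:155345059-155345259, the order was the other way, with 22.4 and 23.4 in pan-BC, with rods at 1.56 and 0, a ratio of 31.7 (95% counting interval 8.45 to 267) (adjusted p = 0.00153). The other internal region, chr4:155345662-155345862, was not called, with 36.8 and 32.5 in pan-BC, with rods at 17.1 and 16.3 and log2 differences from -1.56 to 1.39 over the 4 comparisons. Of the 12 Prkcz regions 1 was called higher in pan-BC and 6 higher in rods, beside 40.3% and 11.2% of all regions. Among those higher in rods was an intron region 18.8 kb from the start, named after its values were seen, with 414 and 398 in rods, with pan-BC at 22.4 and 24.5. Counts per gene do not show which start the transcripts used.

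Of 65 other genes around protein kinase C (related kinases, phospholipases C, diacylglycerol kinases, other diacylglycerol-binding proteins, anchoring proteins, partners of the atypical enzymes and substrates), 59 were tested. In ON-BC minus OFF-BC 5 were called higher in ON-BC and 5 higher in OFF-BC, beside 2.95% and 3.6% of all genes, and their median log2 difference was 0.12 beside -0.02 over all genes. Their 10 calls became 4 without OFF-BC replicate 1 and 5 without ON-BC replicate 2 or 3. Prkd3, protein kinase D3, a kinase that PKC enzymes activate, held 2600.0 ± 355 against 544 ± 92.3 normalized counts in ON-BC and OFF-BC (log2 difference 2.26, adjusted p = 1.86e-06, limma treat). With log2 differences in brackets, the phospholipases C Plcb1 (3.59) and Plch1 (2.96), which make diacylglycerol, and the diacylglycerol kinase Dgkg (2.88), which removes it, were called higher in ON-BC, as was the anchoring protein Akap12 (2.62). Of 10 PKC substrates 4 were called higher in OFF-BC, among them Marcks, a membrane-bound actin regulator, at 190.0 ± 39.8 against 1379 ± 73 (log2 difference -2.87).

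Diacylglycerol kinases, which turn diacylglycerol into phosphatidic acid, were mostly called higher in bipolar cells. In pan-BC minus rod 25 of the 59 genes were called higher in pan-BC and 7 higher in rods, beside 27.8% and 15.8% of all genes, with a median of 1.20 beside 0.21 over all genes. Of 9 diacylglycerol kinases 7 were called higher in pan-BC and 1 higher in rods. Dgkg held 1008 ± 105 against 3.74 ± 3.25 normalized counts in pan-BC and rods (log2 difference 8.16) and Dgke, the 1 kinase called the other way, 346 ± 26.6 against 6998 ± 1171 (-4.32). The presynaptic diacylglycerol-binding gene Unc13c (7.33) and the phospholipase Plcd1 (5.73) were called higher in pan-BC. The substrate Add3 (-4.07), the related kinase Prkd1 (-3.25) and Llgl2, a polarity partner of atypical PKC (-5.92), were called higher in rods. In pan-BC minus blue cone 20 genes were called higher in pan-BC and 7 higher in blue cones, beside 22.7% and 13.7% of all genes (median 1.15 beside 0.16), again with 7 and 1 among the diacylglycerol kinases. Between rods and blue cones 4 were called higher in rods and 8 higher in blue cones, beside 4.63% and 11.3% of all genes (median -0.09 beside -0.00469 over all genes). The largest of these differences was that of Wwc1, which encodes KIBRA, a partner of atypical PKC, at 22.2 ± 10.1 against 5617 ± 151 in rods and blue cones (log2 difference -8.00).

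Over the 15 RNA-seq libraries, which share populations and studies, the genes with the pattern most like each member were described by Pearson's r of log2 values with no test. For Prkca they were Mtmr10 (0.966), Ezh2 (0.963), Prr15 (0.957), Cpeb2 (0.957) and Prkd3 (0.946). For Prkcb they were Fmn2 (0.994), Apba2 (0.994), Pnmal1 (0.993), Rimklb (0.993) and Slc2a6 (0.992), and for Prkce Rnf152 (0.996), Efr3b (0.991), Atp2b1 (0.99), Tmie (0.989) and Rcan2 (0.989). For Prkci they were Neu2 (0.936), Ctdsp2 (0.922), Il16 (0.915), Zc3hav1l (0.914) and Nrip3 (0.91), and for Prkcz Lima1 (0.984), Slc6a9 (0.983), Gm15706 (0.979), Kank1 (0.977) and Trib2 (0.976). Among the members themselves Prkce was most like Prkcb (r = 0.86) and least like Prkcz (r = -0.936), and Prkca and Prkcb had r = 0.255 over the same libraries.

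The regions of the family were searched for TAATCC, a core of homeodomain sites of the OTX2 and CRX kind, TAATTA, a core of other homeodomain sites, and the E-box letters CATCTG or CAGCTG, on both strands. A match is a description of letters, not a site. Of the 92 regions 24 held TAATCC (26.1%), 4 held TAATTA (4.35%) and 34 an E-box (37%), beside 21.8%, 5.22% and 35.9% of all 110715 regions of the same length. In Prkca, 12 of 24 regions held TAATCC, and in Prkcb 9 of 14 held an E-box. Among the 32 family regions called higher in pan-BC than in rods 18 held an E-box, where 47.4% of all such regions did. Among the 16 called higher in rods 7 held TAATCC, where 37.1% of all such regions did. Of the 6 Prkca regions called higher in ON-BC 5 held an E-box, where 42.6% of all regions called higher in ON-BC did.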

How the data were processed

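Bipolar and photoreceptor cells were sorted by flow cytometry and measured by RNA-seq (15 libraries) and ATAC-seq (12 libraries with counts and 14 with peak files). The authors made RNA libraries with a SMARTer Ultra Low kit, aligned reads with STAR and counted them per RefSeq gene with HTSeq, whose strand setting was not given in the sources used here. ATAC-seq reads were aligned with Bowtie2, duplicates and fragments over 150 bp were removed, and peaks were called with MACS2 in each library. The submitters' processing notes name mm10, STAR 2.7.0d, Bowtie2 2.2.5, HTSeq 1.9, SAMtools 1.3, Picard 2.19.0, MACS2 2.1.1, bedtools 2.24.0 and HOMER 4.8. The values the authors deposited in both tables are a signal, the read count divided by a size factor of the library. The fold ratio deposited with each peak is its enrichment over local background.

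Dividing by the value of 1 read returned whole reads, within 0.01 of a read, for 100.0% of 230384 RNA and 1212862 ATAC-seq values. The main test was fitted to the normalized values, and count tests were alternatives. The low-count filter filterByExpr of edgeR left 14024 of 24062 genes and 108448 of 110715 regions, and log2(value + 1) of all libraries of an assay was fitted at once with limma 3.58.1 in R 4.3.3. Treat tested against a log2 difference of 1 with Benjamini-Hochberg adjustment over all genes or regions of a comparison, called at 0.05. A test of any difference ordered neighbouring populations. The fit was tested on simulated data. Alternatives used edgeR 4.0.16, DESeq2 1.42.0, other scalings, filters and pseudocounts, left-out libraries and a replicate block.

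Levels per kb used the union of exons. Each 200 bp region was given to the RefSeq gene with the nearest start, and a promoter reached from 1000 bp upstream to 100 bp downstream of it. Sequences were read from GRCm38. Text names all members, their promoters, the called region with the largest difference per gene and comparison, the 5 genes most like each member, and up to 2 genes per pathway list, comparison and direction. Regions outside this rule are named as chosen after their values were seen. Some items that these rules name are not reported here. Members and lists were chosen with earlier results of these data known. The labels do not say whether replicates are separate animals or pools, so p-values measure the spread between libraries, which may be technical. Counting intervals and the limit of 3 reads cover counting error only. Of the RNA-seq names, 27 had the form of a date and 4 rows shared a name, none of them a member.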

Additional observations from a re-analysis of the deposited data

How the results depend on the processing

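Over all alternatives no single value of the members changed direction. For the transcripts 332 values kept their side of the threshold, 5 passed it newly and 8 lost it, and for the regions these were 845, 20 and 46. The cause of a change was not tested, except that leaving out libraries or populations gives fewer samples and the stricter filter fewer regions. Members called in ON-BC minus OFF-BC numbered 1 in the reported fit, 2 with edgeR and 3 without a fold threshold. In rod minus blue cone they numbered 2 in the reported fit, 1 with DESeq2, 1 with only those populations and 0 to 2 with a library left out. Left-out libraries gave 3 to 4 in pan-BC minus blue cone. Pathway genes called without a fold threshold were 24, 52, 47 and 28 in ON-BC minus OFF-BC, pan-BC minus rod, pan-BC minus blue cone and rod minus blue cone, against 10, 32, 27 and 12 with it, and 4 to 9 in ON-BC minus OFF-BC with a library left out. Family regions called in ON-BC minus OFF-BC were 11, and 3 with a mean of at least 50, 27 without a fold threshold, 5 with only those populations and 7 to 8 with a library left out. In pan-BC minus rod they were 48, and 9 with a mean of at least 50, 79 by gene body and 36 to 38 with a library left out. In pan-BC minus blue cone they were 31, and 7 with a mean of at least 50, 47 without a fold threshold, 54 by gene body and 22 to 26 with a library left out. In rod minus blue cone they were 8, and 20 with edgeR, 1 with a mean of at least 50, 5 with a pseudocount of 5, 35 without a fold threshold, 0 with only those populations, 15 by gene body and 4 to 7 with a library left out.

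Library-total scaling moved the median of all genes by 0.34 in pan-BC minus rod and 0.28 in pan-BC minus blue cone. For regions, TMM moved it by -0.21, -0.19 and -0.28 in ON-BC minus OFF-BC, pan-BC minus rod and pan-BC minus blue cone, and library totals moved it by -0.29, 0.12, -0.17 and, in rod minus blue cone, -0.24. ON-BC and OFF-BC libraries share replicate numbers, and per the labels same-numbered libraries share the age of the mice (postnatal days 43, 48 and 42 for RNA-seq, 42 and 46 for ATAC-seq), which does not say that they share animals or a day of work. Same-numbered RNA-seq libraries deviated with correlations of -0.0763, 0.222 and -0.0649, so the numbers were not taken as pairs. With the replicate block, Prkca in ON-BC minus OFF-BC kept 5.71 (adjusted p = 6.83e-06, limma treat, or 0.00349 with only those libraries), 1 member was called, and family regions called were 10, or 9 with only those libraries. The Prkcb region 183.2 kb in lost its call in both blocked fits (adjusted p = 0.053 and 0.13) and the upstream Prkcz start in the second (0.177). With 2 ATAC-seq libraries per population and few reads in many regions, calls near the threshold rest on single libraries.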
